A study of Mus musculus with 13 samples.

Results

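The presynaptic vesicle release machinery was examined as 42 named genes among the 53832 entries of a TPM table of mouse cortex (TPM, a length-scaled share of all transcripts in a library). The 42 genes were taken from a list of symbols that was drawn up with earlier results of these data known. All 42 had exactly 1 entry. They comprise 13 vesicle proteins, 2 vesicular glutamate transporters, 7 synaptotagmins, 10 SNAREs with their complexins and disassembly factors, 9 active zone proteins and the fission enzyme gene Dnm1. The 13 libraries hold poly(A) RNA of the right cortex, taken after perfusion, and all are labelled 2 weeks. In 4 of them APP/PS1 animals had received trazodone (APP/PS1 trazodone), in 3 APP/PS1 animals had received distilled water (APP/PS1 water), and in 6 wild-type animals had received distilled water (WT water). APP/PS1 mice carry amyloid transgenes and are used as a model of Alzheimer amyloid plaques, and trazodone is a serotonin antagonist and reuptake inhibitor used as an antidepressant. The labels do not give the transgenic line or its promoter, the age or sex of the mice, the trazodone dose, or whether the libraries came from separate litters or batches, so p-values measure the spread between these libraries.

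Transmitter is stored in synaptic vesicles, which are filled by vesicular transporters, docked and primed at the active zone by scaffolds such as RIM and Munc13, and fused with the plasma membrane by the SNARE proteins synaptobrevin, syntaxin and SNAP-25. Synaptotagmins sense calcium and complexins hold the assembled SNAREs ready. After fusion NSF and its SNAP cofactors take the SNAREs apart, and dynamin cuts off new vesicles from the membrane. In cortex most of this machinery belongs to glutamatergic and GABAergic neurons. In bulk RNA, fewer cells of a type and less RNA per cell cannot be told apart.

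Promoter windows from RefSeq (GRCm38.p6, 250 bases before to 50 after a gene start) matched 33 of the 42 genes. 6 are printed. Syn1, Cplx1, Syp and Stx1a were lower in APP/PS1 water than in WT water in every fit that left out a library, and Rims1 was the gene that was higher. Those fits used uncorrected TPM. Syn1 and Stx1a were not called lower after the correction for GC content and length described below. Unc13a is shown because its window, like that of Syn1, holds the rarest motif searched. Capitals mark 3 motifs on either strand: the GC box GGGCGG, the cAMP response element TGACGTCA and TTCAGCACC, the left arm of the RE1 element that the neuronal gene repressor REST binds. The windows are chrX:20920869-20921168 (minus strand) for Syn1, chr8:71671708-71672007 (minus) for Unc13a, chr5:108549978-108550277 (minus) for Cplx1, chrX:7638330-7638629 (plus) for Syp, chr5:135023232-135023531 (plus) for Stx1a and chr1:22806109-22806408 (minus) for Rims1. Each is written 5′ to 3′ along its gene.
Syn1: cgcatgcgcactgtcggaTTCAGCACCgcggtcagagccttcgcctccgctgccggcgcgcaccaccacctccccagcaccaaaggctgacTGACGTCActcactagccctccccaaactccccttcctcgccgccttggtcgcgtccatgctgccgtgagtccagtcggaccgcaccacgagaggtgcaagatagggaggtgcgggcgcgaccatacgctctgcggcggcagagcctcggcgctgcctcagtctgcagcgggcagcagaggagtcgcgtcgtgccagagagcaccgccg
Unc13a: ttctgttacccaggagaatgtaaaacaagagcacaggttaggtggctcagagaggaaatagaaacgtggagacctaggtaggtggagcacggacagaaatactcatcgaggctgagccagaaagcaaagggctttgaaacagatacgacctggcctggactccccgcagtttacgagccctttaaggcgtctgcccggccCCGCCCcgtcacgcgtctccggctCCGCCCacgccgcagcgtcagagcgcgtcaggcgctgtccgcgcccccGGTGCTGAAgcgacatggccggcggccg
Cplx1: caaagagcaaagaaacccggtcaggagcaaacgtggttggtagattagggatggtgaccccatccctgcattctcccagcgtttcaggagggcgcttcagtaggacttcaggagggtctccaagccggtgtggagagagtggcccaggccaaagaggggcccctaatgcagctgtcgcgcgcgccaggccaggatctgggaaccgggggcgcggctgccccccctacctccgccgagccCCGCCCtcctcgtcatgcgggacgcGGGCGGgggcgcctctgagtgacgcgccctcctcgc
Syp: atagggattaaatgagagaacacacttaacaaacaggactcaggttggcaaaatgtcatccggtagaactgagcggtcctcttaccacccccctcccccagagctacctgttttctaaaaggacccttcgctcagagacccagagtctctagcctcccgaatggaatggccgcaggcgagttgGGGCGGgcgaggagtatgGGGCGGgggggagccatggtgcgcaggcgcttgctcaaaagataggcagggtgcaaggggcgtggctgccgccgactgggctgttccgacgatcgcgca
Stx1a: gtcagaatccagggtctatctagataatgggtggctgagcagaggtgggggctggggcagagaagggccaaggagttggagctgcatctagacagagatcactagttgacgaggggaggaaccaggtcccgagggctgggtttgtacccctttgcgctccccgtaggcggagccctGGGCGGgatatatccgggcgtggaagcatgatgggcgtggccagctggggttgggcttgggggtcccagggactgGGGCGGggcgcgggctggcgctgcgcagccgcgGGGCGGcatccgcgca
Rims1: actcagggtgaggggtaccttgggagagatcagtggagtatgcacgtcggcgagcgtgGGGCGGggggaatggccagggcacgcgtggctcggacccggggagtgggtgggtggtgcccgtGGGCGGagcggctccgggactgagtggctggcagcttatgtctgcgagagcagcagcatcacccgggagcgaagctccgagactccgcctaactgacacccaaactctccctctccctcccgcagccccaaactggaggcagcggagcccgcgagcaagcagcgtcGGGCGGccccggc
The RE1 left arm stands in the Syn1 and Unc13a windows, 2 of the 33 matched genes (6.06%), against 0.433% of the 27025 genes of the promoter table. A GC box stands in 26 of the 33 (78.8%), against 38.2% of the table's genes, and the members' windows also had a higher median GC content (62.3% against 52.7%). Syn1 has no GC box in its window but holds a cAMP response element, a motif found in 6.06% of matched members and 2.03% of the table's genes. TATAAA was found in Sv2b alone among the 33 (3.03%), against 15.7% of genes. Rims1, which was higher in APP/PS1 water, and Stx1a, which was lower, each hold 3 GC boxes. Of the 15 matched members called lower, 10 hold a GC box, against 26 of all 33. The part of this motif in the differences was not tested. A match is a run of letters and not evidence of binding.

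Estimated depth was 30.54 to 37.02 M fragments per library, and the weakest member, Syn3, rested on an estimated 115 fragments or more per library. All 42 genes passed the minimum of a mean of 0.5 TPM, with means between 9.59 TPM (Syn3) and 2939 TPM (Snap25). The trend of TPM on transcript GC content set the APP/PS1 water group apart from the others. Its slope per 10 GC percentage points (log2 TPM) was 0.0898 ± 0.0518 in APP/PS1 trazodone, -0.1998 ± 0.0394 in APP/PS1 water and 0.0401 ± 0.0511 in WT water (SD). Values corrected for GC content and transcript length are therefore given beside the results. Microglial markers followed the genotype labels: 7 genes summed to between 583 and 767 TPM in APP/PS1 trazodone, to between 523 and 769 TPM in APP/PS1 water and to between 174 and 224 TPM in WT water. Cortical excitatory neuron markers were present in every library, with sums of 4004 to 4474, 2660 to 2820.2 and 2864 to 4507 TPM in the same groups, and none of the 8 was at 0.

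APP/PS1 water was compared with WT water to see how release genes stood in the transgenic cortex. Of the 42 members, 19 fell, 1, the active zone scaffold gene Rims1, rose, and 22 did not pass the test (limma, Benjamini-Hochberg adjusted p under 0.05 over all genes). Among all 18612 genes tested, 17.5% were called lower and 6.19% higher, so the share of members called lower (19 of 42) lay above that background. The background was not matched for level: it reaches down to a mean of 0.5 TPM, while the members had a median of 226 TPM. The members summed to 14004 to 14869 TPM in APP/PS1 water, against 15550.3 to 18049.5 TPM in WT water, without overlap (1.44% and 1.72% of all TPM on average). The mitochondrial share of TPM moved with this difference, at 13.1 to 15.01% in APP/PS1 water and 9.07 to 12.3% in WT water, also without overlap. With TPM rescaled after dropping mitochondrial, ribosomal protein and hemoglobin genes, 15 members were lower and 1 higher. Of the 18860 genes tested on that scale, 2420 were lower and 1523 higher. The median log2 fold change of the members was -0.31 and that of all tested genes -0.10, and 32 of the 42 members lay below the median of all genes. Every APP/PS1 water library lay below every WT water library for 18 members and above it for 2, Rims1 and Sypl. Of all genes tested, 16.5% were separated downward and 6.55% upward in this way. After the GC and length correction 5 members were lower (Cplx1, Rimbp2, Vamp2, Syp and Syt5) and 2 higher (Rims1 and Rims2). The corrected background was 5.96% lower and 6.3% higher over 18253 genes, and the members' median was -0.08. Neuronal markers moved with the members: 7 of 12 pan-neuronal and 6 of 8 excitatory markers were lower, 3 and 1 after the correction. Of 6 astrocyte markers, 4 were higher both before and after the correction, with sums of 2362 to 2774 TPM in APP/PS1 water and 1358.5 to 1595 TPM in WT water. The part of these markers in the members' differences was not tested.

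**Figure D1:**
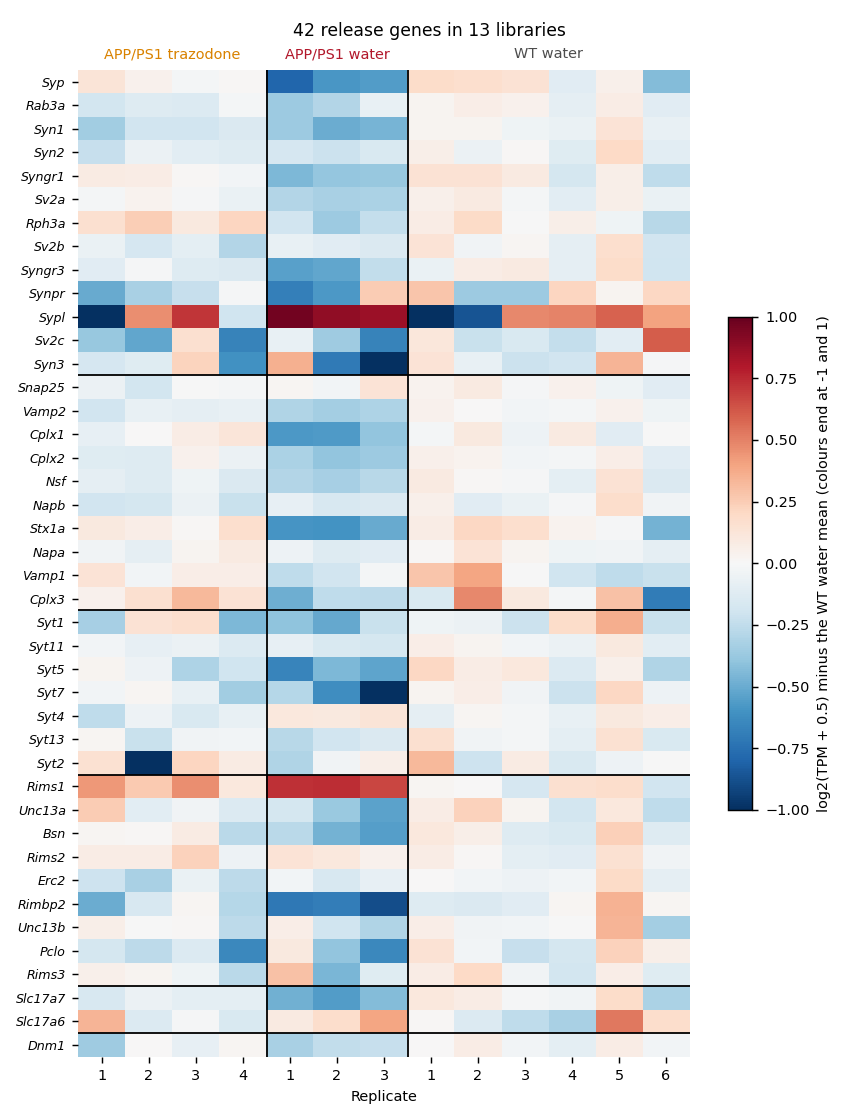
Level of the 42 release genes (rows, grouped by role) in the 13 libraries (columns), as log2(TPM + 0.5) minus the mean of the 6 WT water libraries. The 3 APP/PS1 water columns are blue for genes such as Syp, Cplx1 and Rimbp2, among the 19 called lower, and the Rims1 row is red there.

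**Figure D2:**
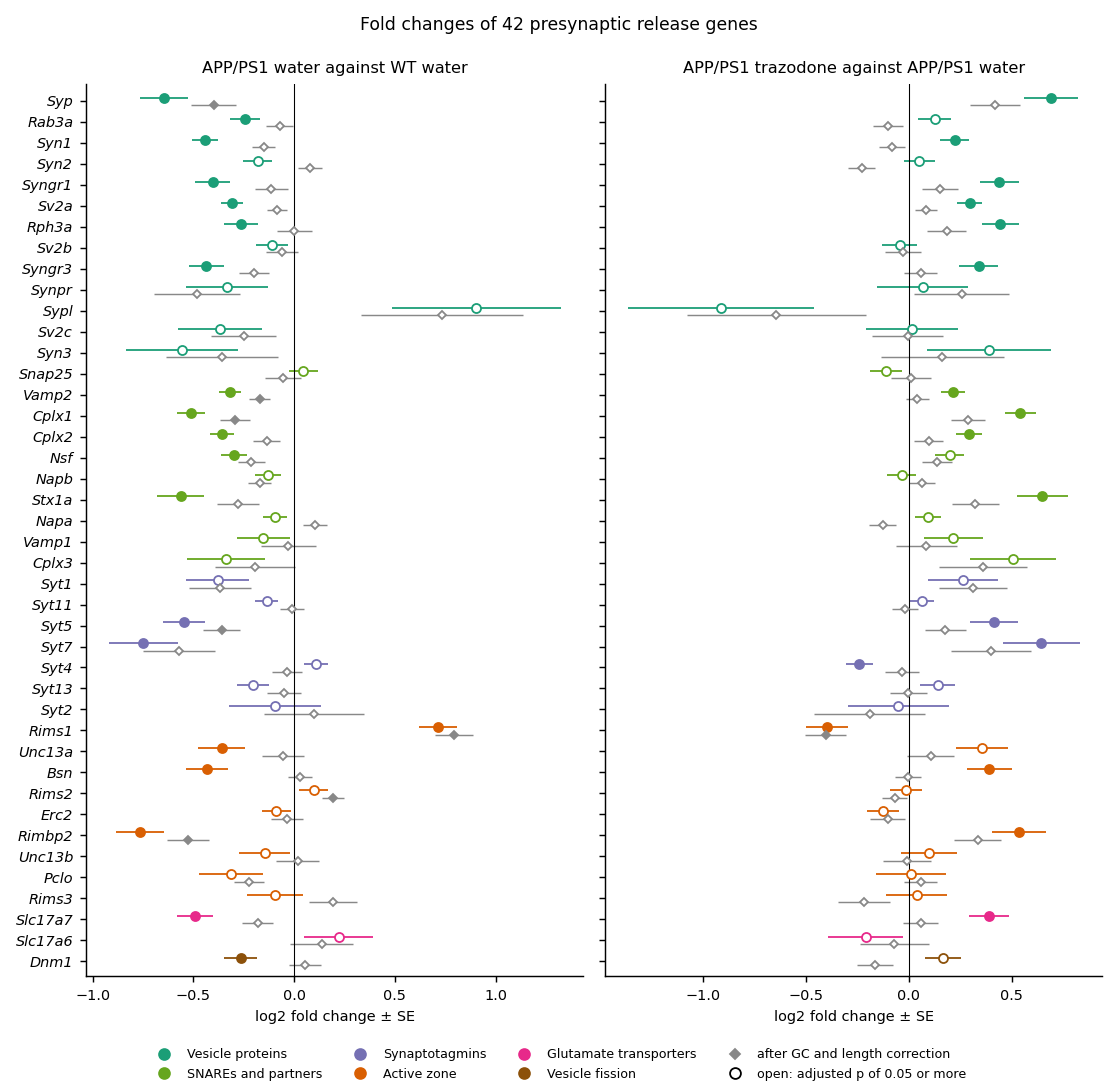
Log2 fold change ± SE of each member in APP/PS1 water against WT water (left) and APP/PS1 trazodone against APP/PS1 water (right), with filled symbols at an adjusted p under 0.05. Grey diamonds give the fold change after the GC and length correction, where 5 members stay lower and 2 are higher on the left, and 1 is lower on the right.

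Among the 13 vesicle proteins, 7 were lower and 0 higher in APP/PS1 water than in WT water, and 1 was lower after the correction. The background for this and the other roles was 17.5% lower and 6.19% higher, and 5.96% and 6.3% after the correction. Syp (synaptophysin, an abundant vesicle membrane protein; GRCm38 chromosome X, 7638471 to 7653256, 7 exons) had 657, 759.7 and 773 TPM in APP/PS1 water. WT water libraries had a lowest value of 842, a median of 1220.3 and a highest of 1298 TPM. The groups did not overlap, although WT water 6, at 842 TPM, lay nearest to the APP/PS1 water libraries. Syp fell by 0.65 ± 0.12 on the log2 scale (adjusted p = 0.00162), and its corrected difference was -0.40 ± 0.11 (adjusted p = 0.034). Its corrected log2 values did overlap, at 9.55 to 9.81 in APP/PS1 water and 9.70 to 10.27 in WT water. Syn1 (synapsin I, which tethers vesicles to each other and to actin) had 492, 448 and 457 TPM in APP/PS1 water, against 599.6, 628 and 695 TPM (lowest, median and highest) in WT water. All 3 APP/PS1 water libraries were below the WT range, and Syn1 fell by 0.44 ± 0.07 (adjusted p = 0.000342). The corrected Syn1 difference was -0.15 ± 0.06 and no longer passed (adjusted p = 0.108).

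Sv2a, the vesicle glycoprotein that binds the antiepileptic levetiracetam, had 261, 256 and 256 TPM in APP/PS1 water, against 297, 323 and 339 TPM in WT water. Its paralog Sv2b had 245, 238 and 233 TPM in APP/PS1 water, against 225, 256 and 289 TPM in WT water. Sv2a fell without overlap by 0.31 ± 0.05 (adjusted p = 0.00119), while Sv2b overlapped and was -0.11 ± 0.08 (adjusted p = 0.345). Syngr1, a synaptogyrin, had 269.7, 282 and 284 TPM in APP/PS1 water, against 309, 388 and 408 TPM in WT water. It fell by 0.40 ± 0.09 and Syngr3 fell by 0.44 ± 0.09. Rab3a, the vesicle GTPase, and Rph3a, its effector rabphilin, fell by 0.24 ± 0.07 and 0.26 ± 0.08, with overlapping ranges. After the correction Sv2a was -0.09, Sv2b -0.06, Syngr1 -0.11, Syngr3 -0.20, Rab3a -0.07 and Rph3a 0.00, none called. The Syngr1 model overlaps Rpl3 on the other strand (mean 603 TPM), and since the labels do not state strandedness, reads of such pairs cannot be told apart. Syn1, Rab3a, Unc13a and Dnm1 likewise overlap Araf, Mpv17l2, Colgalt1 and Ciz1. For Syn3 and Syt2 the gene on the other strand had the higher mean: Timp3 had 62.0 TPM and Syn3 9.59 TPM, and Ppp1r12b had 43.3 TPM and Syt2 25.6 TPM. Of the others, Syn2 was -0.18, Syn3 -0.56, Synpr -0.33, Sv2c -0.37 and the ubiquitously expressed synaptophysin-like gene Sypl 0.90 ± 0.42, none called. Sypl lay between 61.2 and 66.2 TPM in APP/PS1 water and between 15.5 and 50.8 TPM in WT water.

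The vesicular glutamate transporters differed from each other in level. Slc17a7 (VGLUT1, the main transporter of cortical excitatory terminals) had 607, 575 and 624.7 TPM in APP/PS1 water, against 679.7, 864 and 961 TPM in WT water. Slc17a6 (VGLUT2, used largely by subcortical and thalamic neurons) had 20.7, 22.0 and 25.7 TPM in APP/PS1 water, against 15.4, 18.6 and 28.2 TPM in WT water. Slc17a7 fell without overlap by 0.49 ± 0.09 (adjusted p = 0.00141), and Slc17a6 overlapped (0.22 ± 0.17, adjusted p = 0.385). The corrected Slc17a7 difference was -0.18 ± 0.08 (adjusted p = 0.156).

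**Figure D3:**
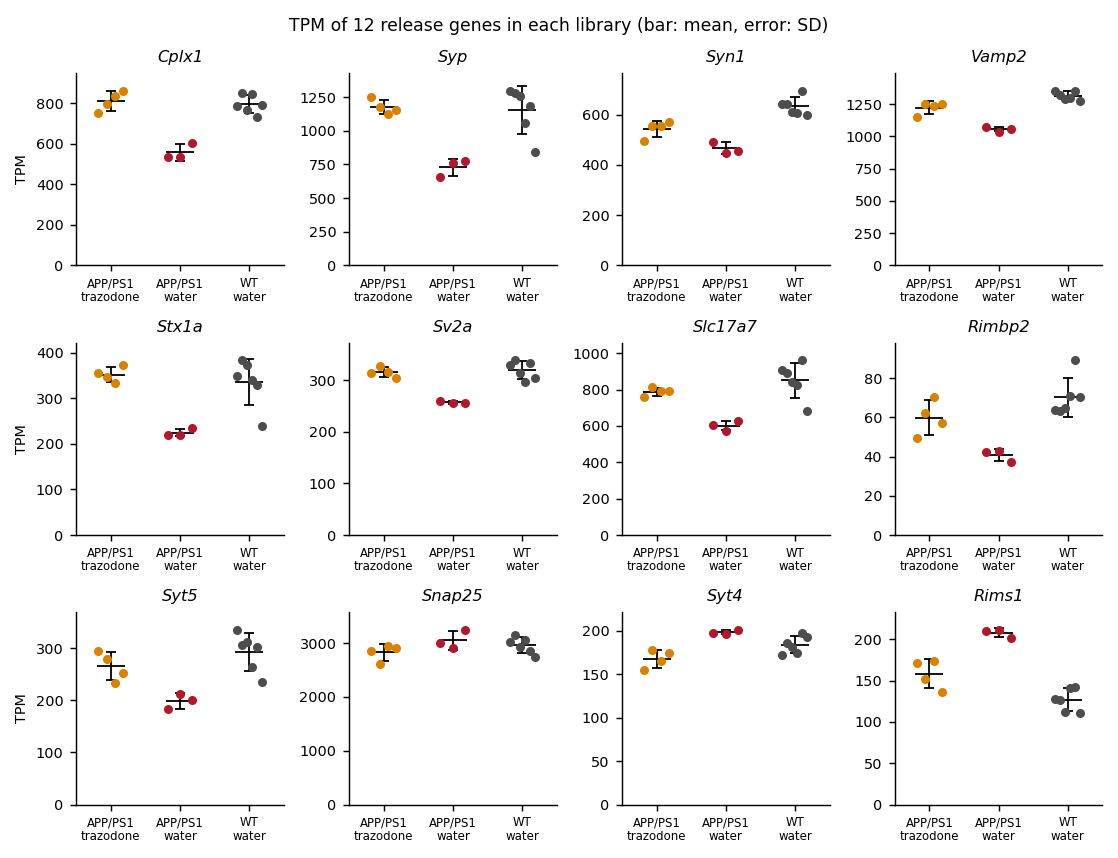
TPM of 12 release genes in each library of APP/PS1 trazodone, APP/PS1 water and WT water (points), with mean and SD. For Cplx1 the APP/PS1 water libraries sit between 532 and 604 TPM, below all others, while for Rims1 they sit between 201 and 211 TPM, above all others, and for Snap25 the 3 groups overlap.

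Of the 10 SNAREs, complexins and disassembly factors, 5 were lower and 0 higher, and 2 were lower after the correction. Snap25 (chromosome 2, 136713453 to 136782428), the plasma membrane SNARE and the most abundant member, had 2999.8, 2905 and 3246 TPM in APP/PS1 water. WT water libraries had 2735, 2976 and 3150.2 TPM (lowest, median, highest), so the groups overlapped. Its difference was 0.04 ± 0.07 (adjusted p = 0.699), and -0.05 ± 0.09 after the correction. Its partner Stx1a, a syntaxin of the plasma membrane, had 220.1, 219 and 234 TPM in APP/PS1 water, against 239, 344 and 383 TPM in WT water. Stx1a fell by 0.56 ± 0.12 (adjusted p = 0.00312), and WT water 6 was again the WT library nearest to the APP/PS1 water ones. The corrected Stx1a difference was -0.28 ± 0.10 (adjusted p = 0.103).

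Vamp2 (chromosome 11, 69088490 to 69092384), the main vesicle SNARE of forebrain, had 1068, 1036 and 1059 TPM in APP/PS1 water, against 1273, 1308 and 1353 TPM in WT water. Vamp1, its paralog, had 118, 123 and 139 TPM in APP/PS1 water, against 118, 131 and 185 TPM in WT water. Vamp2 fell without overlap by 0.32 ± 0.05 (adjusted p = 0.000825), and by 0.17 ± 0.05 after the correction (adjusted p = 0.0498), just inside the threshold. Vamp1 overlapped, at -0.15 ± 0.13 (adjusted p = 0.436).

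Cplx1 (complexin 1; chromosome 5, 108518554 to 108550024, 4 exons) had 532, 535 and 604 TPM in APP/PS1 water, against 733, 788 and 848 TPM in WT water. Cplx2 had 517, 489 and 499.7 TPM in APP/PS1 water, against 595, 647 and 674 TPM in WT water. Both complexins were separated between the groups, with a wider gap for Cplx1. Cplx1 fell by 0.51 ± 0.07 (adjusted p = 0.000188), which is the smallest p among the members that fell, and by 0.29 ± 0.08 after the correction (adjusted p = 0.0219). Cplx2 fell by 0.36 ± 0.06 (adjusted p = 0.000746), with a corrected difference of -0.14 ± 0.07 (adjusted p = 0.20). Cplx3, at a mean of 11.1 TPM, was -0.34 ± 0.19 and not called. Of the disassembly genes, the ATPase gene Nsf fell by 0.30 ± 0.07 (adjusted p = 0.00444; corrected -0.21, adjusted p = 0.0543). Napa (alpha-SNAP) had 265, 251 and 254 TPM in APP/PS1 water, against 257, 272 and 301 TPM in WT water, and Napb (beta-SNAP) 321, 303 and 308 TPM against 315, 334 and 384 TPM. Both cofactors overlapped and were not called (-0.10 ± 0.06 and -0.13 ± 0.07).

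Of the 7 synaptotagmins, 2 were lower and 0 higher, and 1 was lower after the correction. Syt1, the fast calcium sensor of forebrain terminals and the most abundant of them, had 585, 544 and 663 TPM in APP/PS1 water, against 665, 746 and 999 TPM in WT water. Syt2, the related fast sensor of hindbrain and some inhibitory terminals, had 21.1, 25.6 and 27.2 TPM in APP/PS1 water, against 22.7, 25.7 and 33.0 TPM in WT water. Syt1 values did not overlap, but its spread was wide and it was not called (-0.38 ± 0.16, adjusted p = 0.0965). Syt2 overlapped, at -0.09 ± 0.23 (adjusted p = 0.80). Syt5 had 183, 213 and 201 TPM in APP/PS1 water, against 236, 304 and 335 TPM in WT water, and fell by 0.55 ± 0.11 (adjusted p = 0.00226; corrected -0.36 ± 0.09, adjusted p = 0.0211). Syt7, the slow sensor linked to asynchronous release, fell by 0.75 ± 0.17 (adjusted p = 0.00651), and its corrected difference of -0.57 ± 0.18 missed the threshold (adjusted p = 0.0531). Its 3 APP/PS1 water libraries were spread widely, between 86.2 and 180.3 TPM. Syt4, Syt11 and Syt13 were 0.11, -0.14 and -0.21, none called.

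The active zone genes were mixed: of 9, 3 were lower and 1 higher, and after the correction 1 was lower and 2 higher. Rims1 (RIM1, the scaffold that links vesicle Rab3 to Munc13 and calcium channels; chromosome 1, 22286251 to 22805994, 37 exons) had 210.4, 211 and 201 TPM in APP/PS1 water. WT water libraries had 111, 127 and 143 TPM (lowest, median, highest), so every APP/PS1 water library was well above the WT range. Rims1 rose by 0.71 ± 0.10 (adjusted p = 0.000187), and by 0.79 ± 0.09 after the correction (adjusted p = 0.00011). Rims3, a short family member without the Rab3-binding end, had 27.2, 16.02 and 20.3 TPM in APP/PS1 water, against 19.5, 22.4 and 25.5 TPM in WT water. It overlapped (-0.09 ± 0.14), and Rims2 was 0.10 ± 0.07 but passed after the correction (0.19 ± 0.06, adjusted p = 0.0375). Rimbp2, whose protein binds RIM and calcium channels (chromosome 5, 128757791 to 128953486), had 42.2, 42.9 and 37.4 TPM in APP/PS1 water, against 63.0, 67.5 and 89.1 TPM in WT water. It fell by 0.77 ± 0.12 (adjusted p = 0.000531) and by 0.53 ± 0.11 after the correction (adjusted p = 0.00558). RIM1 and the RIM-binding protein gene thus differed in opposite directions with either set of values.

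The giant scaffold gene Bsn (bassoon) had 80.6, 70.0 and 66.1 TPM in APP/PS1 water, against 87.5, 95.2 and 115 TPM in WT water. Its relative Pclo (piccolo) had 34.3, 24.3 and 20.3 TPM in APP/PS1 water, against 27.3, 32.5 and 37.7 TPM in WT water. Bsn fell by 0.43 ± 0.10 (adjusted p = 0.00797), but its corrected difference was 0.03 ± 0.06 (adjusted p = 0.795). Bsn has the highest transcript GC content of the members (59.8%). Pclo overlapped, at -0.31 ± 0.16 (adjusted p = 0.172; corrected -0.22, adjusted p = 0.0656). Unc13a (Munc13-1, the main priming factor) had 139.6, 122 and 109 TPM in APP/PS1 water, against 132, 163 and 185 TPM in WT water, and Unc13b 51.6, 42.8 and 40.0 TPM against 38.8, 48.8 and 62.6 TPM. Unc13a fell by 0.36 ± 0.12 (adjusted p = 0.0377) with overlapping ranges, and was -0.06 after the correction. Unc13b and the ELKS family gene Erc2 were -0.15 and -0.09, not called. Dnm1 (dynamin 1) had 969, 1019 and 1034 TPM in APP/PS1 water, against 1133, 1203 and 1275 TPM in WT water, a fall of 0.27 ± 0.08 without overlap (adjusted p = 0.0282). Its corrected difference was 0.06 ± 0.08 (adjusted p = 0.71). The calls of Dnm1, Rab3a, Rph3a and Unc13a ended when single libraries of either group were left out (adjusted p up to 0.0932, 0.132, 0.154 and 0.171). The other 15 lower genes and Rims1 kept theirs in all 13 fits without 1 library. Those fits include the ones without an APP/PS1 trazodone library, a group that is not part of this comparison.

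Trazodone-treated and water-treated APP/PS1 mice were compared to see how the same genes differed between these groups. Of 42 members, 15 were higher in APP/PS1 trazodone and 2, Rims1 and Syt4, were lower. Among all genes tested 12.5% were higher and 3.92% lower. The members summed to 15955 to 16786 TPM in APP/PS1 trazodone, against 14004 to 14869 TPM in APP/PS1 water, and their median log2 fold change was 0.18, with 0.07 over all genes. The mitochondrial share of TPM was 8.96 to 10.7% in APP/PS1 trazodone and 13.1 to 15.01% in APP/PS1 water, without overlap. With TPM rescaled as above, 12 members were higher and 2 lower, where 1753 of 18860 genes were higher and 1078 lower. Ranges did not overlap for 17 members upward and 3 downward, against 18.1% and 8.35% of all genes. After the GC and length correction 0 members were higher and 1, Rims1, was lower, against backgrounds of 2.31% and 1.59%. With the correction and a block on the title number together, 2 members were higher and 1 lower, where 349 of 18253 genes were higher and 213 lower. This comparison shares the 3 APP/PS1 water libraries with the previous one, so opposite directions in both are not independent. Pan-neuronal markers summed to 4663 to 4885 TPM in APP/PS1 trazodone, against 3753 to 4424 TPM in APP/PS1 water, and 7 of 12 were higher (2 higher and 1 lower after the correction). Excitatory markers summed to 4004 to 4474 TPM in APP/PS1 trazodone, against 2660 to 2820.2 TPM in APP/PS1 water, and 6 of 8 were higher (1 after the correction). The part of these shares and markers in the rise of the members was not tested.

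Vesicle proteins had 6 of 13 higher, the SNARE group 4 of 10, synaptotagmins 2 of 7 with 1 lower, active zone genes 2 of 9 with 1 lower, and the transporters 1 of 2. Over all genes 12.5% were higher and 3.92% lower. After the correction 0 were higher in every role, and 1 active zone gene was lower. With 2 to 13 genes in these roles, the counts do not rank them. Cplx1 had 749, 797, 834 and 861 TPM in APP/PS1 trazodone, against 532, 535 and 604 TPM in APP/PS1 water. It rose without overlap by 0.54 ± 0.07 (adjusted p = 0.000522), and its corrected difference of 0.29 ± 0.08 missed the threshold (adjusted p = 0.0685). Syp had 1248, 1175, 1127 and 1151 TPM in APP/PS1 trazodone, against 657, 759.7 and 773 TPM in APP/PS1 water. It rose by 0.69 ± 0.13 (adjusted p = 0.00314; corrected 0.42 ± 0.12, adjusted p = 0.0746). Stx1a had 355, 346, 334 and 372 TPM in APP/PS1 trazodone, against 220.1, 219 and 234 TPM in APP/PS1 water, a rise of 0.65 ± 0.12 (adjusted p = 0.00356; corrected 0.32, adjusted p = 0.137).

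Sv2a had 315, 328, 316 and 305 TPM in APP/PS1 trazodone, against 261, 256 and 256 TPM in APP/PS1 water, and rose by 0.29 ± 0.06 (adjusted p = 0.00464). Rph3a had 319, 339, 306 and 331 TPM in APP/PS1 trazodone, against 250.4, 222 and 242 TPM in APP/PS1 water, and rose by 0.44 ± 0.09 (adjusted p = 0.00542). Syngr1 had 391, 388, 371 and 362 TPM in APP/PS1 trazodone, against 269.7, 282 and 284 TPM in APP/PS1 water, and rose by 0.44 ± 0.09 (adjusted p = 0.00656). The treated libraries of these 3 vesicle genes lay wholly above the water libraries, and the corrected differences were 0.08, 0.18 and 0.15, none called. Cplx2 had 590.2, 589, 664 and 619 TPM in APP/PS1 trazodone, against 517, 489 and 499.7 TPM in APP/PS1 water, a rise of 0.29 ± 0.06. These 7 genes kept their call when any 1 library was left out. Rimbp2 (0.53), Slc17a7 (0.39), Vamp2 (0.21), Syt5 (0.41), Syngr3 (0.34), Bsn (0.39), Syt7 (0.64) and Syn1 (0.22) also rose, but each lost its call in at least 1 of the 13 fits.

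In APP/PS1 trazodone Rims1 had 171, 152, 174 and 136 TPM, against 210.4, 211 and 201 TPM in APP/PS1 water. All 4 treated libraries were below the water libraries, and Rims1 fell by 0.40 ± 0.10 (adjusted p = 0.0182; corrected -0.41 ± 0.10, adjusted p = 0.0437). That call ended without APP/PS1 trazodone 2, APP/PS1 water 1 or APP/PS1 water 2 (adjusted p between 0.05001 and 0.0612). Syt4, an atypical synaptotagmin found on dense-core vesicles, had 154, 177, 165 and 174 TPM in APP/PS1 trazodone, against 197, 196 and 201 TPM in APP/PS1 water. It fell by 0.24 ± 0.06 (adjusted p = 0.0221), and its corrected difference was -0.03 ± 0.08. Snap25 had 2844, 2604, 2951 and 2911 TPM in APP/PS1 trazodone, against 2999.8, 2905 and 3246 TPM in APP/PS1 water, and was not called (-0.11 ± 0.08, adjusted p = 0.383). Syt1 had 617, 857, 869 and 566 TPM in APP/PS1 trazodone, against 585, 544 and 663 TPM in APP/PS1 water. The 4 treated libraries split into a higher and a lower pair, and Syt1 was not called (0.26 ± 0.17). Dnm1, at 945, 1216, 1146 and 1229.7 TPM in APP/PS1 trazodone, overlapped the APP/PS1 water libraries (0.16 ± 0.09, adjusted p = 0.23).

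**Figure D4:**
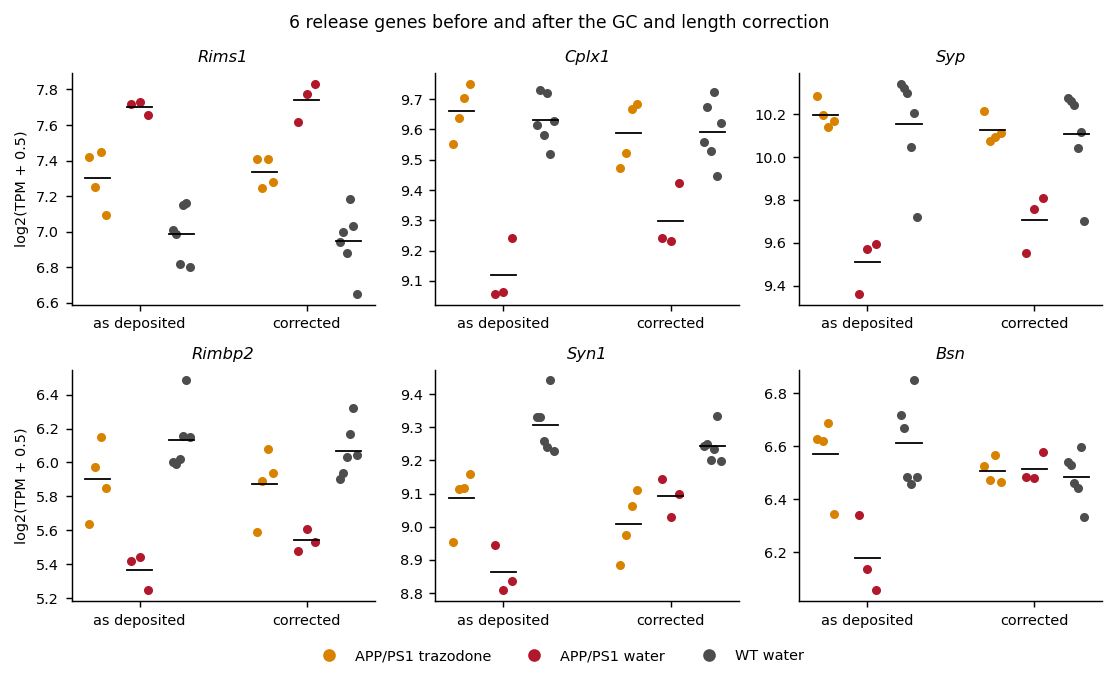
Log2(TPM + 0.5) of 6 release genes in each library of the 3 groups, as deposited and after the GC and length correction, with group means as lines. The APP/PS1 water libraries stay above the others for Rims1 and below WT water for Rimbp2 after the correction, while for Bsn the 3 groups overlap.

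APP/PS1 trazodone was also compared with WT water. No member passed in either direction (limma, 0 of 42 higher and 0 lower), where 1.97% of all genes were higher and 0.258% lower. At an unadjusted p under 0.05 there were 8 members, 2 higher (Rims1 and Rph3a) and 6 lower (Syn1, Sv2b, Syt4, Vamp2, Napb and Erc2), against 13.2% of all genes. After the correction Rims1 was higher and Syn1 lower, against backgrounds of 2.24% and 0.394%. Rims1 had 171, 152, 174 and 136 TPM in APP/PS1 trazodone, against 111, 127 and 143 TPM (lowest, median, highest) in WT water. These ranges overlapped, and the difference was 0.32 ± 0.09 (adjusted p = 0.092; corrected 0.39 ± 0.09, adjusted p = 0.0259). Syn1 had 496, 553, 554 and 571 TPM in APP/PS1 trazodone, against 599.6, 628 and 695 TPM in WT water. Every treated library was below the WT range, with a difference of -0.22 ± 0.06 (adjusted p = 0.0821; corrected -0.23 ± 0.05, adjusted p = 0.0295). Cplx1 and Syp were 0.03 ± 0.06 and 0.04 ± 0.11. A missed threshold does not show that treated and WT levels were equal.

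Ratios between paralogs within a library leave out much of what scales a whole library, though not differences in GC content between the paralogs. Sv2a had 1.28 to 1.45 times the TPM of Sv2b in APP/PS1 trazodone, 1.066 to 1.1003 times in APP/PS1 water and 1.15 to 1.35 times in WT water. The APP/PS1 water ratios lay below both other groups. The Slc17a7 to Slc17a6 ratio was 30.7 to 46.2, 24.3 to 29.3 and 30.9 to 53.7 in the same groups, again lowest in APP/PS1 water. The Rims1 to Rims3 ratio was 6.72 to 8.11 in APP/PS1 trazodone, 7.73 to 13.2 in APP/PS1 water and 4.97 to 7.27 in WT water, so APP/PS1 water lay above WT water. For Cplx1 to Cplx2 the ratio was 1.26 to 1.39, 1.03 to 1.21 and 1.09 to 1.33, and APP/PS1 water overlapped WT water. The other 5 pairs (Vamp1 and Vamp2, Bsn and Pclo, Unc13a and Unc13b, Napa and Napb, Syt1 and Syt2) also overlapped between APP/PS1 water and WT water. Between the APP/PS1 groups, however, 4 of these ratios lay wholly higher with trazodone: Cplx1 to Cplx2, Bsn to Pclo (3.47 to 3.97 in APP/PS1 trazodone and 2.35 to 3.26 in APP/PS1 water), Unc13a to Unc13b (2.98 to 3.68 and 2.71 to 2.85) and Napa to Napb (0.857 to 1.005 and 0.825 to 0.827). The Bsn to Pclo ratio in APP/PS1 trazodone was also above that in WT water (2.66 to 3.26). In every pair wholly higher with trazodone than in APP/PS1 water, the first gene had the higher transcript GC content. These were Sv2a 54.2% and Sv2b 46.8%, Slc17a7 58.5% and Slc17a6 42.9%, and Cplx1 56.0% and Cplx2 53.7%. The others were Bsn 59.8% and Pclo 45.4%, Unc13a 55.1% and Unc13b 50.6%, and Napa 54.9% and Napb 44.2%. Rims1 (47.4%) was below Rims3 (55.4%). The ratios are descriptions without a test, and the part of GC content in them was not tested.

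Transcript GC content moved with the fold changes. Across the 42 members, whose values share the same libraries, Pearson's r between GC content and log2 fold change was -0.64 in APP/PS1 water against WT water, where it was -0.37 across 18253 genes. For APP/PS1 trazodone against APP/PS1 water it was 0.75 across members and 0.52 across genes. In the GC band from 55 to 60% the 17 members had a median of -0.44 in APP/PS1 water against WT water and all 3448 genes one of -0.29. Below 45% the 6 members, Snap25 and Syt4 among them, had a median of 0.08 and all 4258 genes one of 0.11. Rims1 (47.4% GC) and Rimbp2 (53.7%) lay far from the medians of their bands, -0.06 and -0.17. After the correction the r across members was -0.26 and 0.30 in these comparisons.

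**Figure D5:**
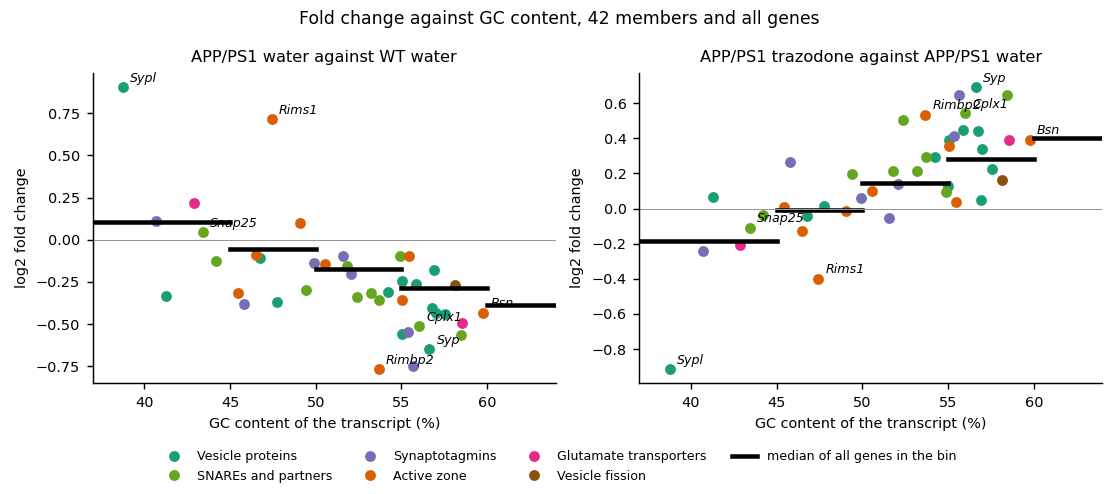
Log2 fold change of the 42 members (points, coloured by role) against the GC content of their transcripts, with the median of all genes in each GC band (black bars). Members follow the bars downward on the left and upward on the right, with Rims1 well above its band on the left and below it on the right.

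Other presynaptic genes were counted from a separate list. Of 71 listed genes outside the 42, 69 were tested, and 21 were lower and 0 higher in APP/PS1 water than in WT water (9 lower and 3 higher after the correction). Their median was -0.16, and 17.5% of all genes tested were lower. In APP/PS1 trazodone against APP/PS1 water 18 were higher and 1, the clathrin heavy chain gene Cltc, was lower (4 and 0 after the correction), where 12.5% of all genes were higher. The 3 with the smallest p were Nrxn2, a neurexin adhesion gene (-1.06 ± 0.09), Sncb, beta-synuclein (-0.92 ± 0.08) and Snap91, the endocytic adaptor AP180 (-0.77 ± 0.08), with corrected values of -0.56, -0.59 and -0.69, all called. In APP/PS1 trazodone against APP/PS1 water the same genes rose by 1.03, 0.95 and 0.71, and by 0.56, 0.54 and 0.66 after the correction, all called. These 3 genes were picked by their p in APP/PS1 water against WT water. Both comparisons use the same APP/PS1 water libraries, so this rise is not independent of the pick. Upward in APP/PS1 water no listed gene passed; the endocytic adaptor gene Picalm (0.22 ± 0.08, adjusted p = 0.0548), Cltc (0.19 ± 0.08) and the liprin gene Ppfia2 (0.20 ± 0.09) had the smallest p. The transporter Slc32a1 stands both in this list and among the inhibitory markers. Of 8 inhibitory neuron markers 3 were lower in APP/PS1 water than in WT water (2 after the correction), as were 5 of 7 striatal markers (2 after it), whose sums were 243 to 380.3 TPM in APP/PS1 water and 375 to 792 TPM in WT water.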

How the data were processed

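Poly(A) RNA-seq of mouse cortex was measured in 13 libraries of 3 groups, assigned from the sample titles. Tools named in the submitters' processing notes are STAR, fastp and DESeq2, with the builds GRCm38 and mm10. No source used here gives their versions, the annotation release or strandedness. The authors deposited FPKM and TPM tables, per the file headers: FPKM scales fragments by gene length and library size, and TPM rescales them to the same total in every library. All 42 members carry merged-model IDs (MSTRG), so coordinates, GC content and length come from GENCODE M21 (GRCm38) by symbol, with the longest transcript of the best APPRIS class. The value of 1 fragment over 2424 single-exon genes gave an estimate of depth.

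limma 3.58.1 (R 4.3.3; eBayes with trend, no block) was fitted once to log2(TPM + 0.5) of all 3 groups, for the 18612 genes whose mean reached 0.5 TPM. Adjusted p values are Benjamini-Hochberg, two-sided, with a threshold of 0.05. Fold changes are on the log2(TPM + 0.5) scale. The correction removed each library's loess trend (span 0.4) on GC content and log2 length, fitted to 18253 genes. The fit was tested on simulated data. The members, their roles, the lists, the motifs and the tests were chosen with earlier results of these data known, so they are no independent support. Values in each library are given for the most abundant member of each role, the up to 6 called members with the smallest p per direction in the first 2 comparisons, and fixed paralog pairs; those of Syt5, Sypl, Synpr and Syn3 were added after their values were seen. Alternatives were pseudocounts of 0.1 and 1, minimums of 1 TPM or none, FPKM, median-ratio scaling, TPM rescaled after dropping hemoglobin, ribosomal protein and mitochondrial genes, robust eBayes, fits of 2 groups, replicate blocks, a threshold of 0.01 and leaving out each library.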

Additional observations from a re-analysis of the deposited data

Results flagged for a closer look

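In 84 groups of 4 or 6 libraries (42 members in APP/PS1 trazodone and in WT water), 6 held a library that stood apart from its group by Dixon's test, which flags about 1 group in 20 by chance. Vamp2 had 1152 TPM in APP/PS1 trazodone 1, against 1237 to 1251 TPM in the other treated libraries. Syt2 had 12.4 TPM in APP/PS1 trazodone 2, against 27.8 to 30.6 TPM in the others. In WT water 6, Stx1a was low, at 239 TPM against 329 to 383 TPM, and Sv2c was high, at 29.3 TPM against 16.1 to 20.7 TPM. In WT water 5, Rimbp2 had 89.1 TPM against 63.0 to 70.8 TPM and Erc2 had 98.4 TPM against 81.0 to 86.5 TPM. The GC slope of WT water 6 was -0.0436 per 10 points, the lowest of the WT libraries.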

How the results depend on the processing

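In APP/PS1 water against WT water, 19 members were lower and 1 higher as reported. The GC and length correction gave 5 lower and 2 higher, and with the replicate block on the title number 6 lower and 1 higher. Over all 18253 genes the correction gave 1088 lower and 1150 higher, and with that block 1007 lower and 938 higher. FPKM and median-ratio scaling each gave 3 higher (Rims1 among them in both) and 15 lower. Over all genes FPKM gave 1841 higher and 2225 lower of 15715, and median-ratio scaling 1972 higher and 2095 lower of 18612. Leaving out 1 library gave 15 to 22 lower and 1 higher each time. In APP/PS1 trazodone against APP/PS1 water, 15 higher and 2 lower became 0 and 1 with the correction, 2 and 1 with the correction and block, 7 and 0 at an adjusted p under 0.01, 9 higher without a minimum, and 1 lower in the fit of 2 groups and with the library-name block. Over all genes the threshold of 0.01 gave 1165 higher and 207 lower of 18612. The fit without a minimum gave 1828 higher and 515 lower of 36008, and that of 2 groups 1839 higher and 478 lower of 18612. Leaving out 1 library gave 9 to 17 higher and 0 to 2 lower, with 9 higher without APP/PS1 trazodone 2, APP/PS1 water 2 or APP/PS1 water 3, 0 lower without APP/PS1 water 1 or 2, and 1 lower without APP/PS1 trazodone 1, APP/PS1 trazodone 2 or APP/PS1 water 3. Against WT water, APP/PS1 trazodone had 0 and 0 as reported, 1 higher with FPKM, median-ratio scaling or the correction, 1 lower with the correction, and 0 to 1 higher and 0 lower with a library left out (1 without APP/PS1 trazodone 4). The remaining alternatives kept these counts within 1.5 times. Some called members changed sign under the correction: in APP/PS1 water against WT water Bsn was 0.030 (0.0042 with the block), Rph3a 0.00031 and Dnm1 0.055 (0.085 with the block), and in APP/PS1 trazodone against APP/PS1 water Syn1 was -0.083 (-0.10 with the block) and Bsn -0.0066. The cause of these shifts was not tested.

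Same-numbered samples did not deviate together (title number: 2 of 10 pairs over 0.1, mean r 0.0299, against -0.0068 for differently numbered ones), and the labels do not say what a shared number stands for. The replicate block gave 18 lower and 1 higher, 16 higher and 2 lower, and 0 and 0 by title number, and 15 and 1, 10 and 1, and 0 and 0 by library number. Over all 18612 genes the title block gave 2978 lower and 1049 higher in the first comparison, and 2309 higher and 563 lower in the second. The library-number block gave 1720 lower and 592 higher in the first, and 1435 higher and 295 lower in the second. Over all genes median-ratio scaling gave 1972 higher and 2095 lower in APP/PS1 water against WT water, where TPM gave 1153 and 3260, with a median of all genes of -0.01 in place of -0.10. In APP/PS1 trazodone against APP/PS1 water it gave 1665 higher and 1337 lower, where TPM gave 2319 and 730. Both comparisons that use the 3 APP/PS1 water libraries are limited by that number, and the weakest member, Syn3, by an estimated 115 fragments in its lowest library.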

Other observations

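A few members varied widely within groups. Sypl had 16.3, 46.5, 55.4 and 29.3 TPM in APP/PS1 trazodone, against 66.2, 62.5 and 61.2 TPM in APP/PS1 water, and the 6 WT water libraries held 2 low values (15.5 and 18.2 TPM) and 4 between 44.5 and 50.8 TPM. Synpr, the synaptoporin gene, had 65.6, 71.0 and 126 TPM in APP/PS1 water, against 81.9 to 128 TPM in WT water. Syn3 had 13.5, 6.22 and 3.90 TPM in APP/PS1 water, against 8.96 to 13.4 TPM in WT water. None of these 3 genes was called in any comparison as reported.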
